A study of Mus musculus with 30 samples.

Results

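The question addressed here is whether a soluble activin receptor changed gene expression differently in the kidneys of Kif3aΔTub mice and of wild-type mice. It is put as an interaction, the log2 change with the receptor in mutant kidneys minus the same change in wild-type kidneys, taken over 17782 genes on 15 of the study's 30 arrays. The study profiled muscle and kidney of 15 mice aged 6 weeks, with 1 array for each tissue of an animal. The 4 kidney groups were Kif3aΔTub mice given sActRIIB-Fc (4 arrays), Kif3aΔTub mice given PBS (4 arrays), wild-type (WT) mice given sActRIIB-Fc (4 arrays) and WT mice given PBS (3 arrays). They are called trap mutants, PBS mutants, trap wild type and PBS wild type below. The labels give the mutant genotype as Kif3aKSPCre, a Cre under the Ksp-cadherin promoter, which is active in tubule epithelium, so that Kif3a is lost in tubule cells and not in the other cells of the kidney. sActRIIB-Fc, the trap, is the ligand-binding part of the activin type IIB receptor fused to an antibody Fc part, and was injected into the peritoneum weekly, 2 times, at 10 mg/kg. No group received an unrelated Fc protein, so the trap was set against PBS. Levels are log2 signals, changes and interactions are on the log2 scale with their standard error, and calls were made in limma where the p adjusted by Benjamini-Hochberg over all genes was under 0.05. An interaction above 0 means that the change with the trap was more positive in the mutants than in wild type.

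Activins and related ligands signal through type II receptors, type I receptors and SMAD proteins, and a soluble type II receptor binds the ligands before they reach the cell. Kif3a is a subunit of the kinesin-2 motor that builds primary cilia, and its loss in tubule cells gives cystic, scarred kidneys in mice. The proximal tubule takes up filtered solutes and secretes organic anions. The collecting duct holds principal cells, which reabsorb sodium and water, and intercalated cells, which move acid and base.

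The tissue matched its label, since proximal tubule markers averaged 11.42 to 11.48 in PBS wild type while muscle fibre genes averaged 4.63 over the 15 arrays. That value is called the floor below. The muscle list held Pvalb, which the distal tubule also expresses, and signals under the floor could still separate groups, as for Esco2 below. The floor is therefore a working level and not a limit of detection. Some arrays stood apart from their groups. Trap mutant replicate 2 carried adrenal genes, with a mean of 9.17 over 13 adrenal markers, against 4.56 to 4.91 on the other 14 arrays. Hsd3b1, a steroid-making enzyme of the adrenal picked after its values were seen, as were Xist and Kdm5d below, was at 3.5, 13.47, 3.27 and 3.46 in trap mutants and 3.63, 3.53, 3.58 and 3.5 in PBS mutants, against 3.83, 3.75, 3.5 and 3.79 in trap wild type and 3.75, 3.73 and 3.59 in PBS wild type. Trap wild type replicate 1 lay with PBS wild type for 7 genes that are higher in male than in female mouse kidneys, with a mean of 12.65, against 10.22 to 11.26 on the other 3 trap wild type arrays and 12.50 to 12.60 in PBS wild type. Xist was between 4.54 and 5.13 on all 15 arrays and the Y-linked gene Kdm5d between 7.04 and 7.83. The signal of the 18S ribosomal RNA control probe sets was lower with the trap in both genotypes without overlap, at 12.003 to 12.71 in trap mutants and 12.86 to 13.43 in PBS mutants, against 12.43 to 12.80 in trap wild type and 12.97 to 13.06 in PBS wild type. Fat cell markers varied widely within groups, with list means of 7.19 to 9.67 in trap mutants and 5.63 to 8.34 in PBS mutants, against 7.13 to 8.58 in trap wild type and 6.41 to 8.49 in PBS wild type. What part these features had in the interaction was not tested beyond the values given beside the results.

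Kif3a itself stood at 7.37, 7.75, 7.39 and 8.0 in trap mutants and 7.25, 7.39, 7.22 and 7.48 in PBS mutants, against 7.72, 7.34, 7.84 and 7.70 in trap wild type and 7.76, 7.89 and 7.84 in PBS wild type. The interaction was 0.48 ± 0.20 and was not called (adjusted p = 0.306). PBS mutants were lower than PBS wild type by 0.50 on the log2 scale, a call with adjusted p = 0.011 (46.4% of all genes were called between the genotypes under the trap and 51.6% under PBS), while trap mutants and trap wild type overlapped. The sources used here do not say where the probe set lies relative to the deleted part, and one lying outside would not test the deletion.

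The change with the trap differed between mutant and wild-type kidneys for a small share of genes, and for most of those the 2 estimates had opposite signs. Of 17782 genes, 246 were called in the interaction (1.38%), 118 above 0 (0.664%) and 128 below 0 (0.72%). The trap itself changed 427 genes in the mutants (2.4%) and 156 in wild type (0.877%). With the 18S signal as a covariate these counts were 29 and 10, and with 1 array left out they were 179 to 770 and 24 to 410, so the division of calls between the genotypes given next describes the fit without covariates on all 15 arrays. Among the 118 genes above 0, the estimates of 105 were above 0 in the mutants and below 0 in wild type, those of 10 were above 0 in both and those of 3 below 0 in both. Among the 128 genes below 0, 122 had estimates below 0 in the mutants and above 0 in wild type. The trap change was called in the mutants and not in wild type for 43 of the 118 and for 76 of the 128, in wild type and not in the mutants for 43 and 16, in both for 1 and 2, and in neither for 31 and 34. The interaction was at least 2-fold for 93 of the 118 genes (median 1.38, range 0.65 to 3.81) and for 67 of the 128 (median of the sizes 1.01, range 0.50 to 2.05). Arrays with the trap did not overlap with those given PBS for 76 of the 118 in the mutants, all higher with the trap (3.61% of all genes), and for 80 in wild type, lower with the trap (7.26%). Among the 128 this held for 100 in the mutants, lower with the trap (4.71%), and for 72 in wild type, higher with the trap (6.74%). These counts describe the genes called and support nothing beyond the call. Over all genes the median interaction was -0.001.

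**Figure D1:**
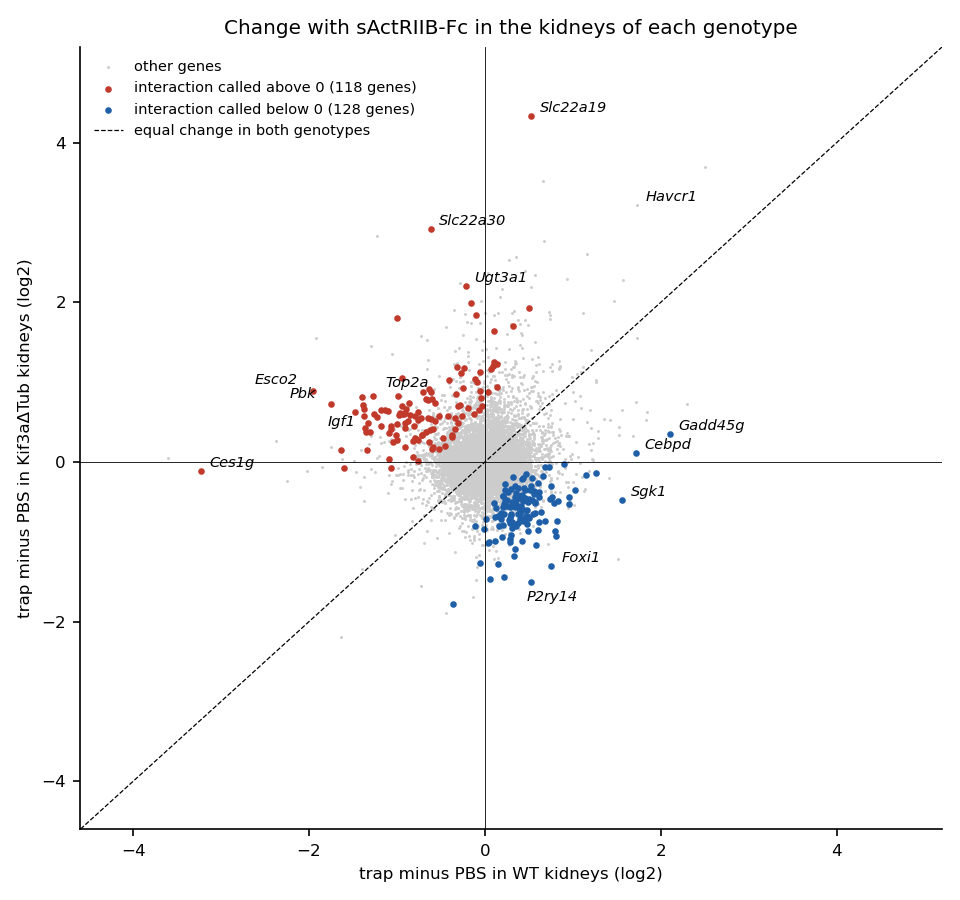
Log2 change with the trap in Kif3aΔTub kidneys (vertical axis) and in WT kidneys (horizontal axis) for 17782 genes, with the dashed line marking equal changes. Most of the 118 genes called above 0 (red) lie at the upper left, where the trap estimate was above 0 in mutants and below 0 in wild type, and most of the 128 genes called below 0 (blue) lie in the lower right; Havcr1 is far from the origin, was changed in both genotypes and was not called in the interaction.

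All 246 genes kept their sign in every fit that measured them, which their choice by call made likely, so this adds no support. The number of calls moved with single arrays. It was 131 without trap mutant replicate 4, and 160, 458 and 127 without PBS mutant replicate 1, 2 or 4. It was 505 and 146 without trap wild type replicate 1 or 4, and 96, 128 and 147 without PBS wild type replicate 1, 2 or 3. With both arrays that stood apart left out it was 364, with 198 of the 246 still called. It was 12 when a change of at least 0.5 was required of the test, and 17 with Xist as a covariate. With Xist the median size of the 246 interactions was 1.05, against 1.13 without it. Xist was low and Kdm5d above it on every array, so this covariate does not split the arrays by sex. What it carries was not tested. The labels give no cage, litter or day of extraction, so these cannot be told apart from the groups.

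Genes of cell division held more called members than any other of the 38 gene lists examined. Lists and their members were chosen with earlier results of these data known. Counts by list, here and below, therefore describe the lists and test nothing. Of 29 measured genes of the cell cycle and mitosis, 14 were called above 0 against 0.664% of all genes, none was called below 0, and 28 had estimates above 0 (median 1.27). In wild-type kidneys 10 of the 29 fell with the trap (0.551% of all genes fell, median of the list -0.75), while in mutant kidneys 1 rose (1.07% of all genes, median 0.51). In bulk tissue, fewer cells of a type and less RNA per cell cannot be told apart.

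Top2a, the DNA topoisomerase of dividing cells, was at 7.56, 8.24, 8.19 and 8.04 in trap mutants and 6.97, 7.36, 7.24 and 7.13 in PBS mutants, against 5.32, 6.46, 5.8 and 5.88 in trap wild type and 7.75, 6.81 and 6.84 in PBS wild type. All 4 trap mutants lay above all 4 PBS mutants, and all 4 trap wild-type arrays lay below the 3 of PBS wild type. The interaction was 2.10 ± 0.35 (adjusted p = 0.00938), made of 0.83 ± 0.24 in the mutants, which was not called (adjusted p = 0.0809), and -1.27 ± 0.26 in wild type, which was (adjusted p = 0.0306). Its other probe set gave an interaction of 0.29, and the mean of both gave 1.2, still called (adjusted p = 0.0154).

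Nusap1, a spindle protein that was picked after its values were seen, had 6.98, 7.17, 7.13 and 7.49 in trap mutants and 6.66, 6.71, 6.52 and 6.61 in PBS mutants, against 6.01, 6.08, 5.91 and 5.85 in trap wild type and 7.83, 7.05 and 7.12 in PBS wild type. Trap wild type was lowest and did not overlap with any other group. The interaction was 1.94 ± 0.22 (adjusted p = 0.000973), with 0.57 ± 0.15 in the mutants and -1.37 ± 0.16 in wild type. Kif11, a spindle motor that was also picked after its values were seen, was called in all 3 tests. It changed by 0.60 ± 0.12 in the mutants (adjusted p = 0.017) and by -0.95 ± 0.13 in wild type (adjusted p = 0.00509), an interaction of 1.55 ± 0.18.

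Bub1, a kinase of the spindle checkpoint, was at 5.36, 6.08, 5.93 and 6.36 in trap mutants and 5.32, 5.16, 5.29 and 5.29 in PBS mutants, against 3.86, 3.87, 3.87 and 3.77 in trap wild type and 6.00, 4.96 and 4.69 in PBS wild type. The 4 trap wild-type arrays lay close together and below the floor of the array, while all arrays of the other 3 groups were above it. Its interaction was 2.04 ± 0.34 (adjusted p = 0.00938), and with the trap wild-type mean set to the floor it was 1.26. Esco2, which joins sister chromatids and is not in the list, had 4.24, 4.37, 4.45 and 5.15 in trap mutants and 3.56, 3.74, 3.63 and 3.70 in PBS mutants, against 2.89, 3.09, 2.93 and 2.68 in trap wild type and 5.69, 4.52 and 4.37 in PBS wild type. It was called (2.85 ± 0.35, adjusted p = 0.00172), but 3 of its 4 group means were below the floor and the interaction was 0.23 with these set to the floor. Its size is therefore uncertain, since both mutant means were also below the floor.

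Pbk, a mitotic kinase (2.47 ± 0.35), and Kif20a, a kinesin of cell division (2.21 ± 0.38), both outside the list, and the list member Ccnb2, a mitotic cyclin (2.10 ± 0.38), were also among the 12 highest called interactions, and each fell in wild type. The trap wild-type mean of Kif20a was below the floor, and its interaction was 2.04 with that mean set to the floor. The list members named next were picked after their values were seen. Mki67, the proliferation marker Ki-67, had 8.20, 9.04, 8.58 and 8.97 in trap mutants and 8.15, 8.09, 8.02 and 8.26 in PBS mutants, against 6.04, 7.07, 6.65 and 6.49 in trap wild type and 8.48, 7.46 and 7.43 in PBS wild type. Trap mutant replicates 2 to 4 were above the PBS mutants and replicate 1 lay within their range, while trap wild type lay below PBS wild type without overlap. Its interaction was 1.80 ± 0.36 (adjusted p = 0.0237), not called in 7 of 27 other settings. Cdk1, the kinase that drives entry into mitosis, gave 1.79 ± 0.34, and Ccna2, a cyclin of DNA replication, gave 1.56 ± 0.33. Ccna2 was not called in 14 of 27 other settings, among them the fit without both arrays that stood apart (1.37, adjusted p = 0.0565). Birc5, Cenpf, Cdc20, Rrm2, Aurka and Mcm3 completed the 14 called members, with interactions from 1.07 to 1.87. The replication genes Pcna (0.67), Mcm2 (0.54), Mcm4 (0.52) and Tyms (-0.05) were not called.

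**Figure D2:**
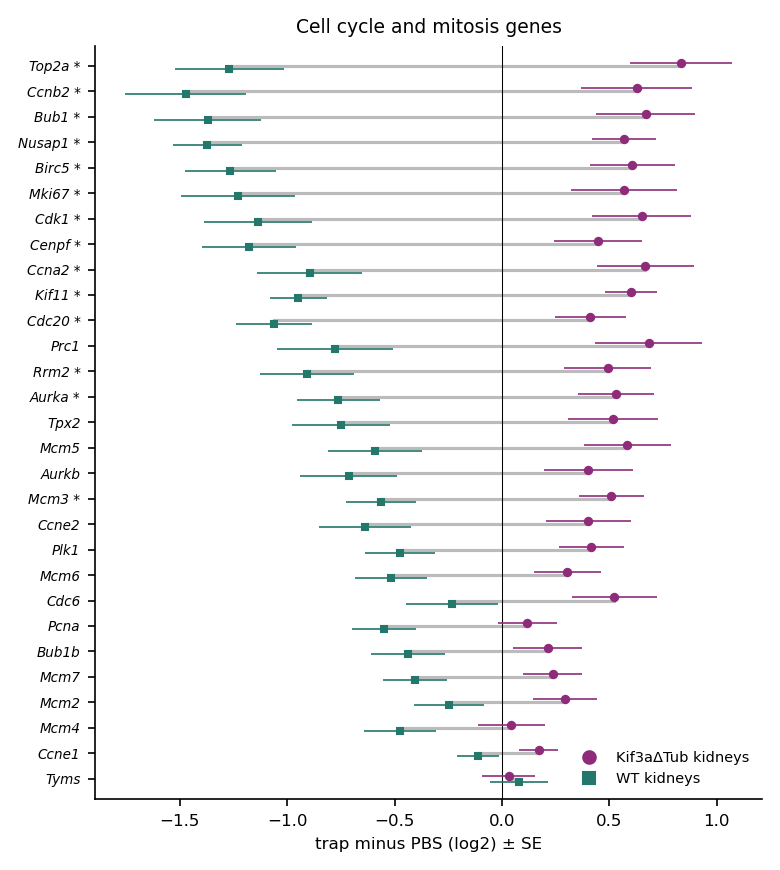
Log2 change with the trap (± SE) for 29 genes of the cell cycle and mitosis in Kif3aΔTub kidneys (circles) and WT kidneys (squares), ordered by the interaction, with an asterisk on the 14 genes called in it. From Top2a down to Ccne1 the circles lie to the right of 0 and the squares to its left, and only Tyms at the bottom has its square to the right of its circle.

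In animals given PBS, the list's level overlapped between the genotypes. Its mean over 29 genes was 6.95 to 7.49 in trap mutants and 6.79 to 6.89 in PBS mutants, against 5.84 to 6.34 in trap wild type and 6.57 to 7.17 in PBS wild type. PBS wild type replicate 1 was the highest of its group at 7.17, and without it 10 of 29 members were called, with a median of 1.04. Without both arrays that stood apart 11 were called (median 1.18).

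The promoters of 3 of these genes are shown because these are the list's 3 highest called interactions. The letters searched are those known from mitotic genes, the CCAAT box bound by NF-Y and the cell cycle homology region TTTGAA. The promoters span the gene's start, mostly the bases before it, and come from RefSeq on GRCm38.p6, all on the minus strand, at chr11:99024140-99024439 for Top2a, chr9:70421505-70421804 for Ccnb2 and chr2:127831810-127832109 for Bub1. Capitals mark CCAAT or TTTGAA on either strand, which read ATTGG or TTCAAA when on the other strand. They are written 5′ to 3′ in the direction of the gene.
Top2a: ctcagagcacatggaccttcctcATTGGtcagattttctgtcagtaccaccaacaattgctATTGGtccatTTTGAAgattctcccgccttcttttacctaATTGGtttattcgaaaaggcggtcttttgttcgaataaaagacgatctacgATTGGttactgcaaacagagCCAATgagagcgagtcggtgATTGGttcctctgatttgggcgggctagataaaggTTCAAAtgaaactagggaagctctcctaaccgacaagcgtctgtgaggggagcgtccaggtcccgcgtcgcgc
Ccnb2: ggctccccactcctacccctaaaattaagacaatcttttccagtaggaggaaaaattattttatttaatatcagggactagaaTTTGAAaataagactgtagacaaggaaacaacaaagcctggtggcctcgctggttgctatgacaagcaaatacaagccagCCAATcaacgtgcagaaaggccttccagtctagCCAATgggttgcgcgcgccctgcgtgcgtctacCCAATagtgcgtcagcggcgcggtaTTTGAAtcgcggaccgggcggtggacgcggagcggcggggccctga
Bub1: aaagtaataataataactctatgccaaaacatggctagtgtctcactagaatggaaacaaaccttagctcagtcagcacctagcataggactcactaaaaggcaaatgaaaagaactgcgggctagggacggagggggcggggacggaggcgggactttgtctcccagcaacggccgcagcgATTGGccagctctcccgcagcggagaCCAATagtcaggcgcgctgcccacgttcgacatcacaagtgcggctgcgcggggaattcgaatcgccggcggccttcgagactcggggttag
Top2a held 6 copies of CCAAT and 2 of TTTGAA, Ccnb2 held 3 and 2, and Bub1 held 2 and 0. Of the 14 called genes of the list 13 had a promoter in the table used. CCAAT was in 11 of these 13 promoters, against 37.4% of 32851 promoters of the same length, and TTTGAA was in 8 of 13, against 17.9%. Over the whole list, called or not, 24 genes had a promoter, and CCAAT was in 19 and TTTGAA in 12 of them. In the 3 promoters shown no match overlaps another. A match describes the letters and says nothing of binding, and the motifs and genes shown were chosen with the results known.

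Genes of the collecting duct had interactions below 0. Of 23 measured genes of this segment, 8 were called below 0 against 0.72% of all genes, none above 0, and all 23 estimates were below 0 (median -0.855). With the trap 7 of the 23 fell in mutants (1.33% of all genes, median -0.495) and 2 rose in wild type (0.326% of all genes, median 0.298). In PBS animals 18 of 23 were higher in mutants than in wild type (24.9% of all genes were). The list's mean was 9.69 to 9.93 in trap mutants and 10.16 to 10.36 in PBS mutants, against 8.88 to 9.32 in trap wild type and 8.63 to 8.79 in PBS wild type. Trap mutants lay between PBS mutants and both wild-type groups without overlap.

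Among intercalated cell genes, Foxi1, the transcription factor that specifies these cells, was at 7.75, 7.98, 7.30 and 7.33 in trap mutants and 8.84, 9.12, 8.83 and 8.77 in PBS mutants, against 8.25, 8.47, 8.01 and 8.73 in trap wild type and 7.78, 7.17 and 7.90 in PBS wild type. All trap mutants lay below all PBS mutants, and all trap wild-type arrays lay above those of PBS wild type. The interaction was -2.05 ± 0.28 (adjusted p = 0.00309). The trap change was -1.30 ± 0.19 in the mutants (adjusted p = 0.00229), and 0.75 ± 0.21 in wild type, which was not called (adjusted p = 0.112). P2ry14, a receptor for UDP-sugars found on intercalated cells in mice, had the smallest p of all genes. It stood at 7.0, 6.91, 7.28 and 7.13 in trap mutants and 8.66, 8.43, 8.41 and 8.86 in PBS mutants, against 6.37, 6.67, 6.60 and 6.64 in trap wild type and 6.12, 5.95 and 6.08 in PBS wild type. The groups did not overlap in either genotype, and trap mutants lay between PBS mutants and both wild-type groups. Its interaction was -2.03 ± 0.17 (adjusted p = 5.86e-05), and the called trap change lay in the mutants (-1.51 ± 0.11, against 0.52 ± 0.12 in wild type with adjusted p = 0.0614).

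Atp6v0d2, a proton pump subunit of these cells and a list member picked after its values were seen, changed by -1.01 ± 0.13 in mutants and 0.05 ± 0.14 in wild type, an interaction of -1.05 ± 0.19 (adjusted p = 0.0149). Several genes of intercalated cells outside the list, also picked after their values were seen, had called interactions below 0. Among them were Kit, a receptor kinase (-1.21 ± 0.20), Aqp6, an intracellular water channel (-1.25 ± 0.27), Hepacam2, an adhesion protein (-1.06 ± 0.19), and Atp6v1c2, a proton pump subunit (-0.77 ± 0.18). Aqp6 was no longer called in 12 of 27 other settings, and Atp6v1c2 in 19 of 27. Kit was at 7.66, 7.65, 7.99 and 7.91 in trap mutants and 9.09, 9.22, 8.94 and 9.02 in PBS mutants, against 7.07, 7.06, 7.25 and 7.66 in trap wild type and 7.08, 7.45 and 7.42 in PBS wild type, so that the mutants separated without overlap and the wild-type groups overlapped. The list's anion exchangers of intercalated cells were not called. They gave -0.58 ± 0.48 for Slc4a1, -0.72 ± 0.38 for Slc26a4, -0.62 ± 0.32 for Slc4a9 and -0.22 for Slc26a7. All but Slc4a1 were picked after their values were seen, and Slc4a1 is also on the list of red blood cell genes.

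Dmrt2, a transcription factor among the 12 lowest called interactions, stood at 6.96, 6.91, 6.96 and 6.89 in trap mutants and 8.47, 8.49, 8.28 and 8.26 in PBS mutants, against 6.30, 6.94, 6.85 and 6.71 in trap wild type and 6.56, 6.28 and 6.59 in PBS wild type. The 4 trap mutants lay close together and below every PBS mutant, while the wild-type groups overlapped. Its interaction was -1.66 ± 0.18 (adjusted p = 0.000754), with -1.45 ± 0.12 in the mutants (adjusted p = 1.7e-05) and 0.22 ± 0.13 in wild type (adjusted p = 0.515).

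Among principal cell genes, the 3 subunits of the epithelial sodium channel ENaC had called interactions below 0. Scnn1a, the alpha subunit, was at 9.22, 8.98, 9.16 and 9.39 in trap mutants and 10.65, 10.23, 9.76 and 10.48 in PBS mutants, against 8.68, 8.84, 8.65 and 8.86 in trap wild type and 8.44, 8.51 and 8.28 in PBS wild type. Trap mutants lay below PBS mutants and trap wild type above PBS wild type, without overlap in either. Its interaction was -1.44 ± 0.23 (adjusted p = 0.0075), and the call for the trap lay in the mutants (-1.09 ± 0.15, against 0.35 ± 0.17 in wild type). The beta subunit Scnn1b gave -1.15 ± 0.24 and the gamma subunit Scnn1g -0.86 ± 0.17, both with called falls in the mutants. The beta and gamma subunits were picked after their values were seen, and the call of Scnn1b was lost in 13 of 27 other settings.

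Avpr2, the vasopressin receptor that controls water uptake, rose in wild type, and was picked after its values were seen, as were Aqp2 and Gata3 below. It was at 10.21, 10.36, 10.17 and 10.28 in trap mutants and 10.33, 10.39, 10.29 and 10.26 in PBS mutants, against 8.94, 8.96, 9.06 and 8.73 in trap wild type and 8.31, 8.10 and 8.31 in PBS wild type. The mutant groups overlapped, and trap wild type lay above PBS wild type without overlap. Its interaction was -0.74 ± 0.13 (adjusted p = 0.011), with -0.06 ± 0.09 in mutants and 0.68 ± 0.09 in wild type (adjusted p = 0.00509). The water channel Aqp2, which vasopressin regulates, gave -1.18 ± 0.46 and was not called (adjusted p = 0.259). Gata3, a transcription factor of principal cells, gave -1.08 ± 0.24, a call lost in 14 of 27 other settings, and the keratin Krt18 gave -1.32 ± 0.28, a call lost in 11 of 27. Krt18 is also counted among the injury genes below, and was higher in PBS mutants than in PBS wild type by 4.08. Kcne1, a potassium channel subunit among the 12 lowest, was at 6.53, 6.81, 6.61 and 6.30 in trap mutants and 7.87, 8.13, 7.47 and 7.51 in PBS mutants, against 6.71, 7.58, 7.26 and 6.70 in trap wild type and 6.77, 6.66 and 6.78 in PBS wild type. Its mutant groups did not overlap, its wild-type groups did, and its interaction was -1.51 ± 0.28 (adjusted p = 0.0187).

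**Figure D3:**
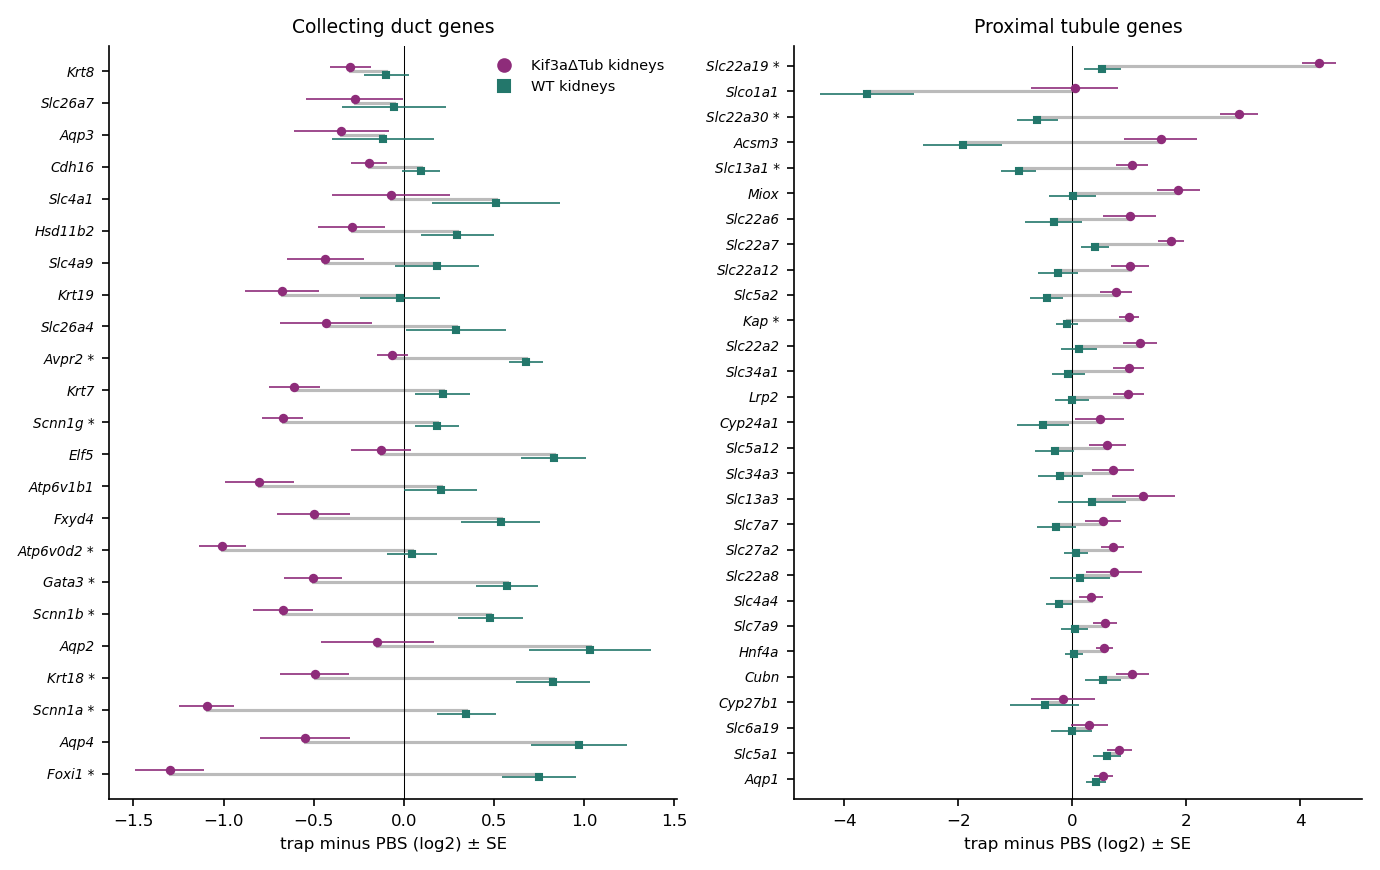
Log2 change with the trap (± SE) in Kif3aΔTub kidneys (circles) and WT kidneys (squares) for 23 genes of the collecting duct (left) and 29 genes of the proximal tubule (right), ordered by the interaction, with an asterisk on genes called in it. In the left panel each circle lies to the left of its square, and in the right panel each circle lies to the right of its square.

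Genes of the proximal tubule had interactions above 0. Of 29 measured, 4 were called above 0 (0.664% of all genes), none below 0, and all 29 estimates were above 0 (median 0.993). In the mutants 6 of 29 rose with the trap (1.07% of all genes, median 0.83), and in wild type none was called in either direction by limma (median -0.07, 2 above 0 and 3 below 0 at an unadjusted p under 0.05). Of the 29, 26 were lower in PBS mutants than in PBS wild type (26.7% of all genes were, and the list's median was -2.42), so that trap mutants lay nearer to wild type than PBS mutants did. Its mean was 9.54 to 9.91 in trap mutants and 7.91 to 9.22 in PBS mutants, against 11.08 to 11.25 in trap wild type and 11.42 to 11.48 in PBS wild type.

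Slc22a19, an organic anion transporter, had the highest called interaction. Ugt2b37, picked after its values were seen, had a higher estimate that was not called (4.06, adjusted p = 0.0501). Slc22a19 was at 9.84, 9.47, 9.33 and 9.04 in trap mutants and 4.31, 6.24, 4.92 and 4.88 in PBS mutants, against 12.11, 11.65, 12.14 and 12.05 in trap wild type and 11.19, 11.62 and 11.56 in PBS wild type. The 4 trap mutants lay far above the 4 PBS mutants and below both wild-type groups. The interaction was 3.81 ± 0.44 (adjusted p = 0.000973), with 4.33 ± 0.30 in mutants (adjusted p = 2.72e-06) and 0.53 ± 0.32 in wild type (adjusted p = 0.525).

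Slc22a30, a transporter of the same family, had 7.49, 7.45, 7.46 and 7.89 in trap mutants and 3.88, 4.89, 5.55 and 4.29 in PBS mutants, again without overlap. In wild type it had 11.97, 10.45, 11.21 and 10.54 in trap wild type and 11.69, 11.61 and 11.67 in PBS wild type. Its interaction was 3.54 ± 0.49 (adjusted p = 0.00309), with 2.92 ± 0.33 in mutants and -0.62 ± 0.36, not called, in wild type. These transporters have close relatives in the genome, and signal shared between family members cannot be told apart here. The sulfate transporter Slc13a1 gave 2.00 ± 0.41 and the androgen-regulated Kap 1.09 ± 0.26. Neither call was stable, since 9 of the 27 alternative fits did not call Slc13a1 and 17 did not call Kap.

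Outside the list, Ugt3a1, a UDP-glycosyltransferase, stood at 8.85, 9.07, 9.46 and 9.26 in trap mutants and 6.32, 7.28, 7.37 and 6.86 in PBS mutants, against 11.53, 11.01, 11.11 and 10.94 in trap wild type and 11.44, 11.55 and 11.09 in PBS wild type. The mutant groups were separate and the wild-type groups overlapped, and its interaction was 2.42 ± 0.31 (adjusted p = 0.00188). Ugt2b38, of the related glucuronidating family, gave 2.80 ± 0.62 (adjusted p = 0.038), a call lost in 15 of 27 other settings, and Serpinf2, the inhibitor of plasmin, gave 2.15 ± 0.41 (adjusted p = 0.019). In both the called trap change lay in the mutants (1.80 ± 0.42 and 1.99 ± 0.28). Car4, a carbonic anhydrase of the brush border that was picked after its values were seen, changed by 1.85 ± 0.22 in mutants and -0.10 ± 0.24 in wild type, an interaction of 1.95 ± 0.32. Slc17a1, a phosphate and urate transporter (0.95 ± 0.21), and Mep1a, a brush border protease (1.15 ± 0.25), were picked in the same way, and their calls were lost in 15 and 14 of 27 other settings. The endocytic receptor Lrp2 (0.99 ± 0.40) and the phosphate transporter Slc34a1 (1.07 ± 0.40), picked likewise, were not called.

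For male-biased kidney genes, 1 of 7 was called above 0 (0.664% of all genes), all 7 estimates were above 0 and their median was 1.72. Slco1a1, an organic anion transporter controlled by androgens that was picked with Acsm3 after the values were seen, was at 5.62, 5.64, 5.10 and 5.29 in trap mutants and 5.09, 5.36, 5.52 and 5.49 in PBS mutants, against 10.89, 5.93, 6.5 and 6.03 in trap wild type and 11.09, 11.01 and 10.72 in PBS wild type. Trap wild type replicate 1 was at the level of PBS wild type, and the other 3 lay more than 4 below it on the log2 scale. The interaction of 3.65 ± 1.12 was not called (adjusted p = 0.132), and without that array it was 4.84 and called (adjusted p = 1.26e-07). Acsm3, an acyl-CoA synthetase, moved likewise, at 3.48 ± 0.95 with all arrays (adjusted p = 0.0909) and 4.18 without that array (adjusted p = 0.0106). With both arrays that stood apart left out, 7 of 29 proximal tubule genes were called (median 0.91) and 11 of 23 collecting duct genes (median -1.03).

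For a further set of called genes the called trap change lay in wild type. Ces1g, a carboxylesterase, was at 3.49, 3.29, 3.03 and 3.27 in trap mutants and 3.16, 3.45, 3.74 and 3.18 in PBS mutants, against 3.32, 3.87, 3.21 and 3.73 in trap wild type and 7.14, 6.19 and 6.96 in PBS wild type. PBS wild type was the only group above the array's floor, and the other 3 overlapped. It was called (adjusted p = 0.000251), as was the fall in wild type (adjusted p = 4.29e-06). With the 3 lower group means set to the floor the fall in wild type was by 2.13 on the log2 scale. The interaction was then 2.13, against 3.11 as fitted. In the mutants the gene was below the floor with and without the trap. A trap change there may have gone unmeasured, and the size of the interaction is uncertain.

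**Figure D4:**
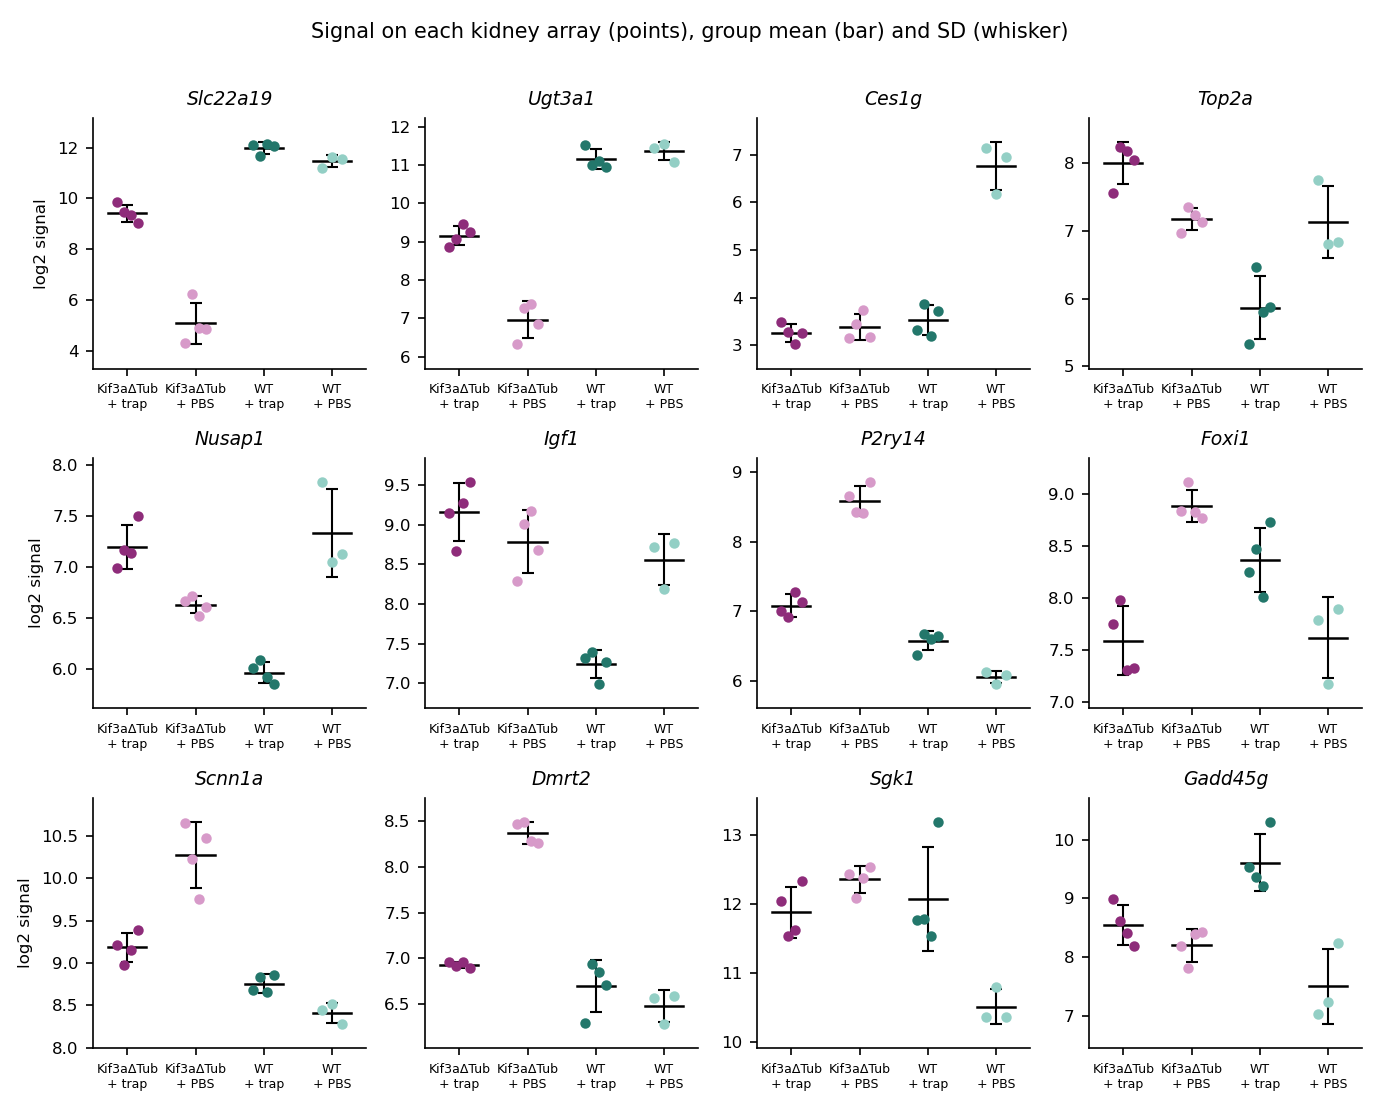
Log2 signal of 12 genes on each kidney array (points) with the group mean (bar) and SD (whisker), for Kif3aΔTub + sActRIIB-Fc, Kif3aΔTub + PBS, WT + sActRIIB-Fc and WT + PBS from left to right; each panel has its own axis, which does not start at 0. The groups separate in both genotypes for Slc22a19, P2ry14, Foxi1, Scnn1a, Top2a and Nusap1. They separate only in the mutants for Ugt3a1 and Dmrt2, and only in wild type for Ces1g, Igf1, Sgk1 and Gadd45g. Nusap1 and Igf1 were picked after their values were seen.

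Pvalb, a calcium-binding protein of the distal convoluted tubule and of fast muscle fibres, was at 4.85, 4.61, 4.98 and 4.90 in trap mutants and 4.72, 5.39, 4.40 and 4.25 in PBS mutants, against 7.46, 7.50, 7.35 and 7.17 in trap wild type and 8.74, 9.16 and 9.11 in PBS wild type. It fell in wild type (-1.64 ± 0.21, adjusted p = 0.00357), and both mutant groups lay near the floor and overlapped. Its interaction was 1.78 ± 0.28 (adjusted p = 0.00838). Psat1, an enzyme of serine synthesis, changed by -1.01 ± 0.20 in wild type, a called fall, and gave 1.35 ± 0.27.

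Several genes that respond to glucocorticoids or stress had called rises in wild type with the trap. Sgk1, a kinase that raises sodium transport, was at 12.04, 11.54, 11.63 and 12.33 in trap mutants and 12.44, 12.09, 12.38 and 12.54 in PBS mutants, against 11.78, 11.79, 11.54 and 13.20 in trap wild type and 10.37, 10.81 and 10.37 in PBS wild type. All trap wild-type arrays lay above PBS wild type, replicate 4 far above the rest, and the mutant groups overlapped. The interaction was -2.04 ± 0.42 (adjusted p = 0.0264), with 1.56 ± 0.31 in wild type (adjusted p = 0.0275) and -0.48 ± 0.29 in mutants. Without trap wild type replicate 4 it was -1.67 and called, at the lowest adjusted p of all settings (0.0109). The call was lost in 8 of 27 other settings, 6 of them with 1 array left out (adjusted p from 0.0527 without trap mutant replicate 2 to 0.0856 without PBS wild type replicate 1).

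Cebpd, a transcription factor induced by stress hormones and cytokines, gave -1.60 ± 0.32 (adjusted p = 0.0229), with 9.46, 9.26, 9.77 and 9.47 in trap mutants and 9.52, 9.13, 9.46 and 9.40 in PBS mutants, against 7.84, 8.65, 7.87 and 8.66 in trap wild type and 6.12, 6.42 and 7.07 in PBS wild type. The wild-type groups did not overlap, and the rise was called (1.72 ± 0.24), while the mutants changed by 0.12 ± 0.22, which was not called. The interaction of Cebpd lost its call in 7 of 27 other settings, among them the fits without PBS wild type replicate 1 or 2. Gadd45g, a growth arrest gene, gave -1.76 ± 0.40 (adjusted p = 0.0427), with 8.99, 8.61, 8.41 and 8.18 in trap mutants and 8.19, 7.81, 8.39 and 8.42 in PBS mutants, against 9.54, 9.37, 9.21 and 10.31 in trap wild type and 7.04, 7.23 and 8.24 in PBS wild type. Its wild-type groups did not overlap and its mutant groups did, and its rise in wild type was called (2.11 ± 0.29). Its call was lost in 14 of 27 other settings, among them quantile normalization (adjusted p = 0.0511), 9 of the fits with 1 array left out and the fit without both arrays that stood apart (-1.80, adjusted p = 0.0593). Ier3, an immediate-early gene, gave -1.40 ± 0.31, a call lost in 13 of 27 other settings, and its rise of 1.26 ± 0.23 in wild type was called. Among 18 glucocorticoid targets 2 were called below 0 (0.72% of all genes), and 16 of 18 estimates were below 0. At an unadjusted p under 0.05, 8 interactions were below 0 and none above, and 10 targets rose in wild type and none fell. The median interaction was -0.56, or -0.30 without trap wild type replicate 4. The list's mean was 10.77 on that array and 9.64 to 9.76 on the other 3 of its group.

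Further genes among the 12 lowest called interactions had other roles. C1qtnf4, a secreted protein of the C1q and TNF-related family, was at 6.65, 6.39, 6.46 and 6.17 in trap mutants and 7.49, 7.11, 7.31 and 7.45 in PBS mutants, against 6.60, 7.43, 6.80 and 6.84 in trap wild type and 6.09, 6.00 and 6.22 in PBS wild type. Neither genotype's groups overlapped, and both trap changes were called, at -0.92 ± 0.15 in mutants and 0.81 ± 0.17 in wild type, for an interaction of -1.74 ± 0.23 (adjusted p = 0.00212). Ehf, an ETS factor of epithelial cells, had 9.03, 8.63, 9.30 and 8.60 in trap mutants and 10.18, 9.68, 9.86 and 9.97 in PBS mutants, against 8.29, 8.10, 8.35 and 8.77 in trap wild type and 7.75, 7.94 and 7.69 in PBS wild type. Its groups did not overlap in either genotype, and the interaction was -1.62 ± 0.25 (adjusted p = 0.00672), with a called change of -1.03 ± 0.17 in mutants.

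H60c, which encodes a ligand of the NK cell receptor NKG2D, gave -1.53 ± 0.30, with -1.47 ± 0.20 in mutants and 0.06 ± 0.22 in wild type. Of its 4 group means 3 were below the floor, both wild-type ones among them, and the interaction was -0.85 with these set to the floor, so its size is uncertain. Sbspon, a secreted protein with somatomedin B and thrombospondin domains, gave -1.56 ± 0.30, with neither trap change called. Gcnt3, a mucin glycosyltransferase, gave -1.66 ± 0.37 (adjusted p = 0.0383), a call lost in 15 of 26 other settings, but its other 2 probe sets gave -0.14 and -0.12, and the mean of its probe sets was not called (-0.64, adjusted p = 0.0995). Of its 4 group means 3 were below the floor, and the interaction was -0.17 with these set to the floor.

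Within the pathway that the trap targets, 1 of 39 measured components was called below 0 (0.72% of all genes) and none above 0, with a median of -0.15. That gene was Bmpr1b, a type I receptor for BMPs, at 7.4, 6.89, 7.64 and 7.30 in trap mutants and 8.14, 8.29, 7.85 and 8.28 in PBS mutants, against 6.88, 6.54, 7.08 and 7.17 in trap wild type and 6.42, 6.57 and 6.85 in PBS wild type. The mutant groups did not overlap and the wild-type groups did, the interaction was -1.14 ± 0.25 (adjusted p = 0.0339), and with the mean of its 3 probe sets it was -0.48 and not called (adjusted p = 0.118). Its call was lost in 13 of 27 other settings. Among ligands, Inhba, coding for the activin A subunit, gave -0.32 ± 0.17 (adjusted p = 0.45) and Inhbb, of activin B, gave 0.68 ± 0.39 (adjusted p = 0.489). Inhba was at 6.93, 6.81, 7.37 and 7.05 in trap mutants and 7.02, 6.96, 7.01 and 6.87 in PBS mutants, against 5.97, 5.83, 5.68 and 5.78 in trap wild type and 5.22, 5.46 and 5.59 in PBS wild type, so that both mutant groups lay above both wild-type groups. The activin-binding proteins Fst (0.16 ± 0.25) and Fstl3 (-0.65 ± 0.30) were not called, nor were the receptors Acvr2a (-0.29 ± 0.13), Acvr2b (-0.62 ± 0.20) and Acvr1b (-0.30 ± 0.15) or the inhibitor Smad7 (0.13 ± 0.19).

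SMAD target genes gave no calls in limma. Of 17 TGF-beta and SMAD2/3 targets 15 had estimates below 0 (median -0.28), 5 of them at an unadjusted p under 0.05. Of 10 BMP and SMAD1/5 targets 7 had estimates below 0 (median -0.17), 2 of them at an unadjusted p under 0.05. Ccn2, a matrix-associated TGF-beta target, was at -1.46 ± 0.47 (adjusted p = 0.15), Tgfbi at -1.17 ± 0.31 (adjusted p = 0.0804) and Id3, a BMP target, at -0.72 ± 0.22 (adjusted p = 0.12).

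Injury genes differed among themselves. Havcr1, which encodes the tubule injury marker KIM-1, was at 10.72, 11.48, 12.39 and 12.04 in trap mutants and 9.07, 8.39, 8.12 and 8.17 in PBS mutants, against 10.44, 9.58, 10.64 and 9.89 in trap wild type and 8.05, 8.81 and 8.36 in PBS wild type. Trap arrays lay above PBS arrays without overlap in both genotypes, and both rises were called, at 3.22 ± 0.33 in mutants and 1.73 ± 0.36 in wild type. The interaction of 1.49 ± 0.49 was not called (adjusted p = 0.159). The other probe set of Havcr1 gave 1.93 ± 0.51, and the gene was called in 1 of 27 other settings (adjusted p = 0.047). Lcn2, a siderophore-binding protein released by injured tubules, gave -0.06 ± 0.31 (adjusted p = 0.96) and was at 12.31, 13.02, 13.18 and 13.20 in trap mutants and 13.75, 12.87, 13.38 and 13.54 in PBS mutants, which overlapped. Of 23 injury genes 2 were called below 0 (0.72% of all genes), 19 had estimates below 0, 9 of them at an unadjusted p under 0.05, and the median was -0.41. The called members were Krt18, also given with the principal cell genes above, and Anxa1, which encodes annexin A1 (-0.96 ± 0.22, a call lost in 14 of 27 other settings). Among 30 macrophage markers only Cd163, a scavenger receptor, was called (-1.46 ± 0.32, adjusted p = 0.0323), against 0.72% of all genes below 0, and the list's median was -0.27, with 6 of 30 below 0 and 1 above 0 at an unadjusted p under 0.05. Both wild-type means of Cd163 were below the floor, and its interaction was -0.86 with these set to the floor. Its call was lost in 13 of 26 other settings, also without both arrays that stood apart (-1.33, adjusted p = 0.053).

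Among single genes of kidney hormone and growth factor systems, Kl, which encodes the FGF23 co-receptor klotho, was at 9.47, 9.79, 9.61 and 9.83 in trap mutants and 8.81, 9.29, 9.36 and 8.92 in PBS mutants, against 11.42, 11.37, 11.66 and 11.16 in trap wild type and 11.65, 11.66 and 11.69 in PBS wild type. Trap mutants lay above PBS mutants without overlap while the wild-type groups overlapped, and the interaction was 0.85 ± 0.20 (adjusted p = 0.0462). This call was lost in 16 of 27 other settings, 10 of them with 1 array left out and 1 without both arrays that stood apart (0.81, adjusted p = 0.0777). Egf, made in the distal tubule, rose by 2.37 ± 0.55 in mutants and had an interaction of 2.23 ± 0.81 that was not called (adjusted p = 0.215). Umod (0.56 ± 0.19), Cyp24a1 (0.99 ± 0.63) and Cyp27b1 (0.32 ± 0.83) were not called.

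Most other lists held no or few called genes. None was called by limma among 31 matrix genes (median -0.31, 4 below 0 at an unadjusted p under 0.05), 26 interferon response genes (median 0.25, 2 above 0 at that p), 17 clock genes (median -0.31, 2 below 0) and 29 cilium genes (median 0.01, 4 above 0 and 1 below 0). Of 35 oxidative phosphorylation genes 33 had estimates above 0, with a median of 0.18, no call by limma and 9 above 0 at an unadjusted p under 0.05. NF-kB, STAT3, complement and hedgehog genes had medians of -0.05, -0.09, -0.14 and -0.14, no calls by limma, and 4, 1, 2 and 2 members at an unadjusted p under 0.05. Single members were called in other lists. Fabp3, a fatty acid carrier, gave 1.41 ± 0.33 and was the 1 called of 21 genes of fatty acid oxidation (0.664% of all genes were called above 0), a call lost in 17 of 27 other settings, and Gstm2, a glutathione transferase, gave -1.09 ± 0.21 and was the 1 called of 16 NRF2 targets (0.72% of all genes were called below 0).

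Among markers of immune, stromal, vascular, fat and adrenal cells, only the macrophage gene Cd163 was called. Fibroblast, pericyte and smooth muscle markers had a median of -0.42, with 5 of 17 below 0 at an unadjusted p under 0.05, and endothelial markers a median of -0.12, with 3 of 17 below 0 and 1 above 0. T, B and NK cell markers had a median of 0.21, with 4 of 19 above 0 at that p, and none of 10 neutrophil markers passed it. For 10 fat cell markers the median was 0.84, with 1 above 0 at an unadjusted p under 0.05. For 13 adrenal markers the median was 1.15 with none at that p, and it was 0.10 without trap mutant replicate 2.

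**Figure D5:**
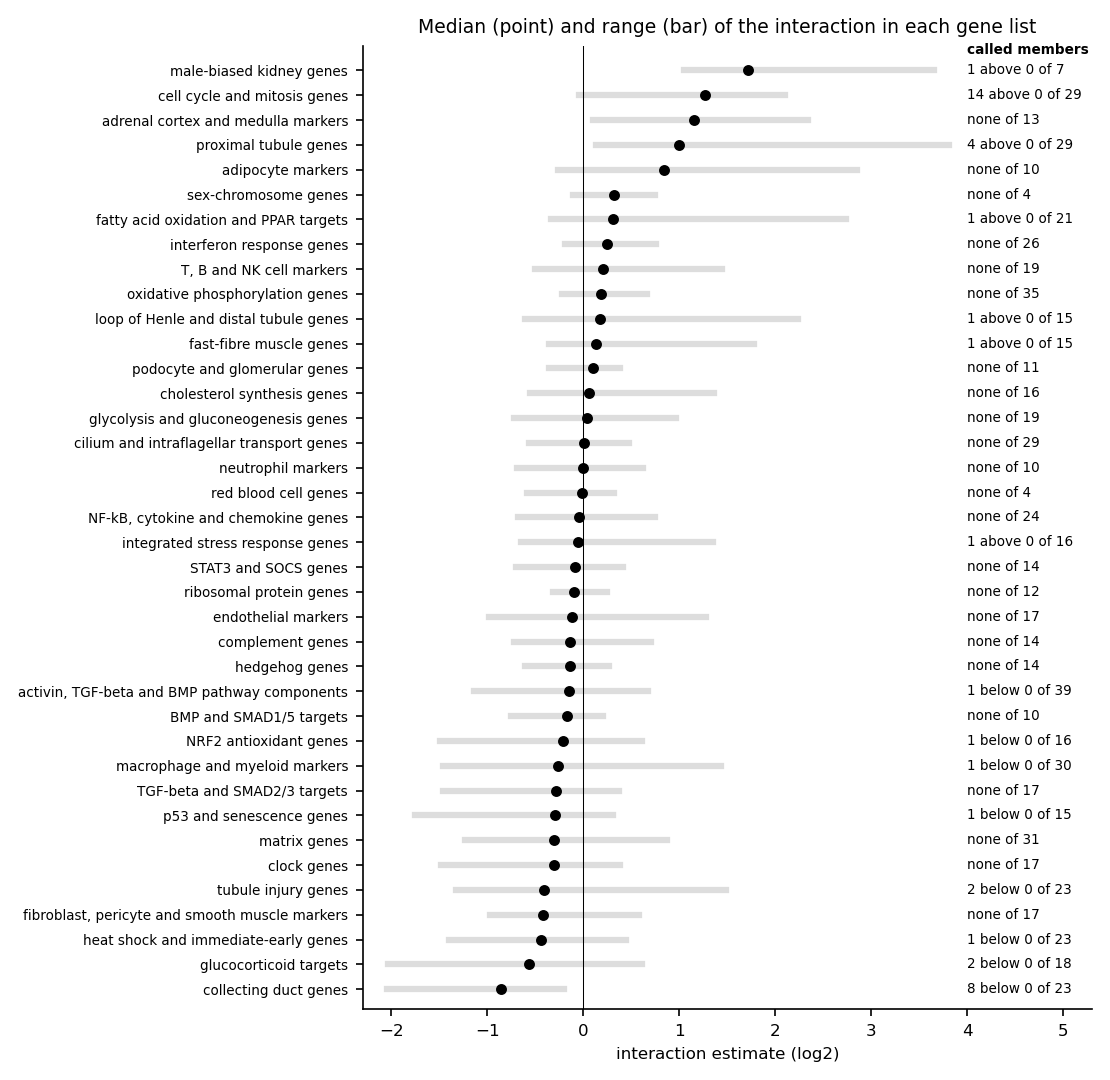
Median (point) and range (bar) of the interaction over the measured members of 38 gene lists, with the number of called members above or below 0 written at the right. The cell cycle list (14 of 29 above 0) and the collecting duct list (8 of 23 below 0) hold the most called members, and the adrenal and fat cell lists have medians above 0 with none called.

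Setting kidney against muscle, the interaction differed between tissues for 148 genes (0.832%), 55 higher in kidney (0.309%) and 93 lower (0.523%), in a model of both tissues that took each animal's pair of arrays as a random block. In the same model the muscle interaction was called for 10 of the 246 kidney genes, against 1.58% of all genes. The genes named above were chosen by their kidney interaction, which is part of the tissue difference, so their differences describe them and test nothing further. Where a gene is near the bottom of the scale in muscle, the difference is close to the kidney value by construction. Ces1g was at 3.15 to 3.82 and Slc22a19 at 3.30 to 4.06 on the 15 muscle arrays, and Foxi1 at 4.24 to 5.37. Dmrt2 was at 6.34 to 7.30 in muscle, with an interaction there of 0.30 ± 0.20 that was not called. Of 29 cell cycle genes, whose median interaction was -0.61 in muscle, 1 was called in the tissue difference. It was Cdc20, which starts the exit from mitosis (1.57 ± 0.38, adjusted p = 0.0418), and Top2a gave 2.95 ± 0.97 and was not called (adjusted p = 0.144). Cebpd had a called interaction of -2.47 ± 0.51 in muscle, and its tissue difference was not called (0.87 ± 0.69, adjusted p = 0.624).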

How the data were processed

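RNA from kidney and muscle (QIAZOL extraction, per the labels' protocols) was hybridised to Affymetrix mouse expression arrays. The authors deposited log2 values for 35088 probe sets on 30 arrays, with all values already normalized; the sources used here do not name the method. The platform annotation gave 1 symbol to 31563 probe sets, several to 825 and none to 2700, and each of 17782 genes was represented by its probe set of highest mean over the 15 kidney arrays. No symbol was changed through RefSeq, and 111 probe sets found no match there. As the values are array signals, the number of arrays limits the precision.

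A limma 3.58.1 fit in R 4.3.3 held the 4 kidney groups with no covariate, and contrasts were tested with eBayes, two-sided, with Benjamini-Hochberg adjustment over all genes. The tissue difference was fitted on all 30 arrays with the animal number of the labels as a random block (consensus correlation 0.0745). Named genes were the 12 highest and 12 lowest called interactions above the floor, up to 3 called members of each list (or the member of smallest p) and a set of single genes. Members, lists and single genes were chosen with earlier results of these data known, and named genes outside this rule are marked as picked after their values were seen. No pair of arrays held identical values, and the lowest correlation within a group was 0.984.

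In simulated data with 200 of 17782 genes changed, the fit found 79% of those with a log2 change of 1 and 98% of those with a change of 2, and made 6 false calls. The simulated noise was normal, independent between genes and equal across groups, with no arrays that stood apart. These rates therefore need not hold for the real arrays. Alternatives covered the gene level, filtering, normalization, weights, covariates, the block and each array left out. Leaving out 2 arrays together was chosen after seeing the data. Promoters came from RefSeq (GRCm38.p6), without those on chromosome 18. Python 3.11.15 drew the figures.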

Additional observations from a re-analysis of the deposited data

Results flagged for a closer look

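The change with the trap differed between the genotypes in kidney for 246 genes, and this difference itself differed between kidney and muscle for 148 genes.

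In 420 groups of 4 arrays tested for single arrays far from the other 3, 24 were found, where chance flags about 1 in 20 groups. Trap mutant replicate 2 had 7 of them. Cyp11b1 was at 11.478 there, against 4.066 to 4.276 on the other trap mutant arrays, Hsd3b1 at 13.468, against 3.274 to 3.5, and the adrenal list at 9.169, against 4.689 to 4.828. Neutrophil markers were also high on it (6.024, against 4.908 to 5.056), as was the collecting duct list (9.928, against 9.686 to 9.707). Kap was low (12.753, against 13.496 to 13.582), and endothelial markers were low (7.911, against 8.066 to 8.085).

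Among the other trap mutants, replicate 4 was high for Slc22a30 (7.892, against 7.451 to 7.492) and low for hedgehog genes (6.547, against 6.712 to 6.738). Replicate 3 was high for Fst (8.750, against 7.917 to 7.983) and for ribosomal protein genes (12.035, against 11.843 to 11.863).

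PBS mutant replicate 2 was high for Serpinf2 (7.962, against 6.5 to 6.683) and for fatty acid oxidation genes (9.993, against 9.274 to 9.351). It was low for Col1a1 (8.697, against 9.727 to 9.870) and for TGF-beta targets (9.562, against 10.155 to 10.237).

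In trap wild type, replicate 1 was high for Slco1a1 (10.890, against 5.928 to 6.495), Serpinf2 (11.409, against 10.759 to 10.845) and Kap (14.387, against 14.306 to 14.318). Replicate 2 was high for Umod (13.639, against 13.343 to 13.393) and for macrophage markers (7.337, against 6.781 to 6.871). Replicate 4 was high for Sgk1 (13.197, against 11.537 to 11.791), Klf4 (7.974, against 7.204 to 7.334) and glucocorticoid targets (10.770, against 9.637 to 9.756), and low for proximal tubule genes (11.077, against 11.224 to 11.248). What these arrays share beyond the values given was not tested.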

How the results depend on the processing

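For the interaction, 246 calls with the main settings became 643 with array weights, 17 with Xist as a covariate, 12 with a required change of 0.5, 364 with both arrays that stood apart left out (chosen after seeing the data) and 96 to 505 with each array left out. All 246 genes kept their sign in every alternative that measured them, which their choice by call made likely. The median standard error over them was 0.217 with the main settings and 0.249 with the Xist covariate, which does not split the arrays by sex. Another gene level, filter, centring, quantile normalization, prior or RNA quality covariate left this count within 1.5 times, and with the 18S covariate it was 216. The replicate numbers, which follow the order of the arrays within each group, were tried as a replicate block. This gave 102 calls for the interaction and 53 for the trap in wild type. Same-numbered arrays of different groups did not deviate together (median correlation 0.038 over 21 pairs, 4 above 0.1, range -0.124 to 0.342), and 6 of 15 arrays correlated best with their own number. Each kidney array came from a different animal, so a shared number did not mark a shared animal. For the trap in mutants, 427 calls became 29 with the 18S covariate, 274 with Xist, 22 with the required change, 264 with both arrays left out and 179 to 770 with each array left out. For the trap in wild type, 156 became 73 with dim genes removed, 580 with array weights, 10 with 18S, 8 with Xist, 2 with the required change, 428 with both arrays left out and 24 to 410 with each left out. For genotype under PBS, 9174 became 5807 with dim genes removed, 5235 with Xist, 3104 with the required change and 7760 to 9801 with each array left out. Under the trap, 8252 became 5201, 2168 with the required change and 7155 to 8485. For kidney minus muscle, 148 became 75 without the animal block and 47 to 317 with each animal left out.

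The cell cycle list kept a median of 1.04 to 1.39 over 26 other settings, with 2 to 24 members called above 0. The proximal tubule list kept 0.66 to 1.16, with 2 to 8 called, and the collecting duct list -1.03 to -0.79, with 1 to 13 called below 0. Of 68 named called genes none changed sign, which their choice by call made likely. In every setting that measured them 11 were called (Slc22a19, Slc22a30, Ces1g, Esco2, Ugt3a1, Foxi1, P2ry14, C1qtnf4, Dmrt2, Nusap1 and Kif11). Of these Ces1g, Esco2, C1qtnf4, Nusap1 and Kif11 were not measured where dim genes were removed. List medians near 0 changed sign in some settings, with ranges of -0.174 to 0.092 for NF-kB genes, -0.213 to 0.008 for STAT3 genes, -0.045 to 0.063 for cilium genes and -0.075 to 0.074 for neutrophil markers. The named genes that changed sign in some setting were not called. With each array left out, these genes ranged from -0.233 to 0.144 for Lcn2, -0.476 to 0.278 for Col1a1, -0.339 to 0.871 for Cyp27b1, -0.043 to 0.273 for Fst, -0.733 to 0.111 for Timp1 and -0.177 (without trap mutant replicate 2) to 3.221 for Hsd3b1. Lcn2 became 0.042 and Col1a1 0.136 with array weights. With Xist, Col1a1 became 0.170, Cyp27b1 -0.045 and Smad7 -0.062, and Hsd3b1 became -0.138 with both arrays left out. The cause of these changes was not tested.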

Other observations

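The genes of the next 3 paragraphs were picked after their values were seen. They were chosen because they were called, so they say nothing of other genes with the same role. Igf1, the growth factor made in response to growth hormone, was at 9.15, 8.66, 9.27 and 9.54 in trap mutants and 8.28, 9.01, 9.17 and 8.68 in PBS mutants, against 7.32, 7.4, 6.99 and 7.27 in trap wild type and 8.71, 8.19 and 8.76 in PBS wild type. The mutant groups overlapped, and trap wild type lay below PBS wild type without overlap. The interaction was 1.68 ± 0.30 (adjusted p = 0.0151), and in muscle it was also called, at 1.40 ± 0.34 (adjusted p = 0.0342). Ghr, the growth hormone receptor, was at 12.19, 12.03, 12.04 and 11.95 in trap mutants and 10.47, 11.31, 11.00 and 10.91 in PBS mutants, against 12.94, 12.33, 13.05 and 12.88 in trap wild type and 12.80, 12.93 and 12.85 in PBS wild type. Here the mutant groups were separate and the wild-type groups overlapped, with an interaction of 1.19 ± 0.24 (adjusted p = 0.0239) and a called rise of 1.13 ± 0.16 in mutants.

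Tfrc, the transferrin receptor, was at 9.84, 9.90, 10.39 and 10.30 in trap mutants and 8.71, 9.28, 9.02 and 8.66 in PBS mutants, against 10.96, 9.80, 10.56 and 10.21 in trap wild type and 10.86, 10.55 and 10.70 in PBS wild type. Its mutant groups were separate, and its interaction was 1.51 ± 0.31 (adjusted p = 0.0275), a call lost in 11 of 27 other settings. Bdh1 and Oxct1, enzymes that use ketone bodies, gave 0.79 ± 0.16 (adjusted p = 0.0219) and 0.76 ± 0.14 (adjusted p = 0.019), and both rose in mutants. Their calls were lost in 5 and 4 of 27 other settings, for Oxct1 also with the mean of all probe sets.

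Itgb4, an integrin of hemidesmosomes, was at 7.17, 7.31, 7.29 and 7.08 in trap mutants and 8.17, 7.88, 7.96 and 8.04 in PBS mutants, against 5.85, 6.31, 6.08 and 6.03 in trap wild type and 5.55, 5.89 and 5.72 in PBS wild type. Trap mutants lay below PBS mutants without overlap and still above both wild-type groups, whose arrays overlapped, and the interaction was -1.15 ± 0.16 (adjusted p = 0.00309). Muc1, a membrane mucin, gave -1.43 ± 0.25 (adjusted p = 0.0138), Dsp, a desmosome protein, -1.12 ± 0.17 (adjusted p = 0.00714), and Epcam, an adhesion molecule of epithelia, -0.72 ± 0.12 (adjusted p = 0.00934). The transcription factors Klf4 (-1.20 ± 0.23), Klf5 (-1.12 ± 0.22) and Grhl2 (-1.05 ± 0.20) were also called. However, the other 3 probe sets of Grhl2 gave -0.24, -0.13 and 0.08, and the other probe set of Klf5 gave -0.43. With the mean of all probe sets neither Klf5 nor Grhl2 was called. In muscle the interaction of Klf5 was also called, at -0.99 ± 0.22 (adjusted p = 0.0257).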
